A study of Mus musculus with 24 samples.

Results

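A set of 9 genes of blood vessel growth were followed in mouse inguinal fat: the growth factor genes Vegfa, Angpt1 and Angpt2, the endothelial receptor genes Tek, Tie1, Kdr and Flt1, and the endothelial junction genes Pecam1 and Cdh5. They were picked by name with earlier results of these data known, and all 9 were found among the 17541 genes of the deposited table and passed the filter on low counts that left 15939 genes for testing. The samples were inguinal white adipose tissue, the subcutaneous depot at the groin, from C57BL/6J wild-type mice that the series title places on a high-fat diet. The groups were 5 Aged BAM15 mice and 6 Aged CTRL mice at 92 weeks of age, and 6 Young BAM15 mice and 7 Young CTRL mice at 16 weeks. BAM15 is a mitochondrial uncoupler, a compound that carries protons across the inner mitochondrial membrane. CTRL stands for the mice without it, and Young CTRL is the group that the submitters name as the reference. Dose, route and length of treatment are not given in the labels, and each library carries an animal ID of its own.

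VEGF-A binds the tyrosine kinase receptors VEGFR2, made from Kdr, and VEGFR1, made from Flt1; VEGFR2 carries most of the growth signal, while VEGFR1 binds the ligand tightly and can act as a trap for it. Angiopoietin-1, from Angpt1, comes largely from pericytes and other mesenchymal cells and activates the receptor Tie2, made from Tek, which keeps vessels quiescent and tight. Angiopoietin-2, from Angpt2, is made mainly by endothelial cells and often opposes angiopoietin-1 at Tie2, and Tie1 is a partner receptor without a classical ligand of its own. PECAM-1 and VE-cadherin, from Pecam1 and Cdh5, hold neighbouring endothelial cells together. In growing fat, new vessels accompany the enlargement of adipocytes.

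Libraries were made from total RNA with the Lexogen QuantSeq kit, which reads the 3′ ends of transcripts. The deposited counts are given per gene, so isoforms of a gene, such as the soluble form of VEGFR1, cannot be told apart here. Library totals ran from 8.62 to 21.9 M counts, and each of the 9 genes had counts in every library, from 40 counts at the lowest for Angpt2 to 5575 at the highest for Kdr. The adipocyte genes Adipoq and Plin1 were high in every library, at no less than 1390 and 778 CPM (counts per M counts of the library, with TMM scaling). Libraries that stood apart were 4 with little of the mitochondrial transcript mt-Rnr2 (Aged BAM15 mice 2 and 5, Aged CTRL mouse 2 and Young CTRL mouse 4; 0.121% to 0.257% of counts, against 0.722% to 2.26% in the other 20), 2 with much of the skin keratin gene Krt14 (Young CTRL mice 1 and 7; 840 and 90.0 CPM) and 2 with much of the muscle actin gene Acta1 (Young BAM15 mouse 3 and Young CTRL mouse 7; 14545 and 14063 CPM). Some values are given also without the 4 libraries with little mt-Rnr2, or without the 3 libraries with skin or muscle transcripts. Those 3 are all young mice, so that setting leaves muscle transcripts in the aged groups. Acta1 was at 5891 CPM in Aged CTRL mouse 1, 2169 CPM in Aged BAM15 mouse 1 and 1442 CPM in Aged BAM15 mouse 2. In bulk tissue, fewer cells of a type and less RNA per cell cannot be told apart.

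Angpt1 had the largest difference of the 9 genes in the age comparison and in the BAM15 comparisons at both ages. On the CPM scale it averaged 24.1 ± 5.13 in Aged BAM15 and 10.99 ± 3.30 in Aged CTRL, and 27.7 ± 4.08 in Young BAM15 and 18.2 ± 2.64 in Young CTRL (SD, n = 5, 6, 6 and 7). The other 8 genes lay in overlapping ranges in every comparison. None of the 9, Angpt1 included, passed an adjusted p of 0.05 in edgeR's quasi-likelihood test, which was adjusted over all 15939 genes.

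**Figure D1:**
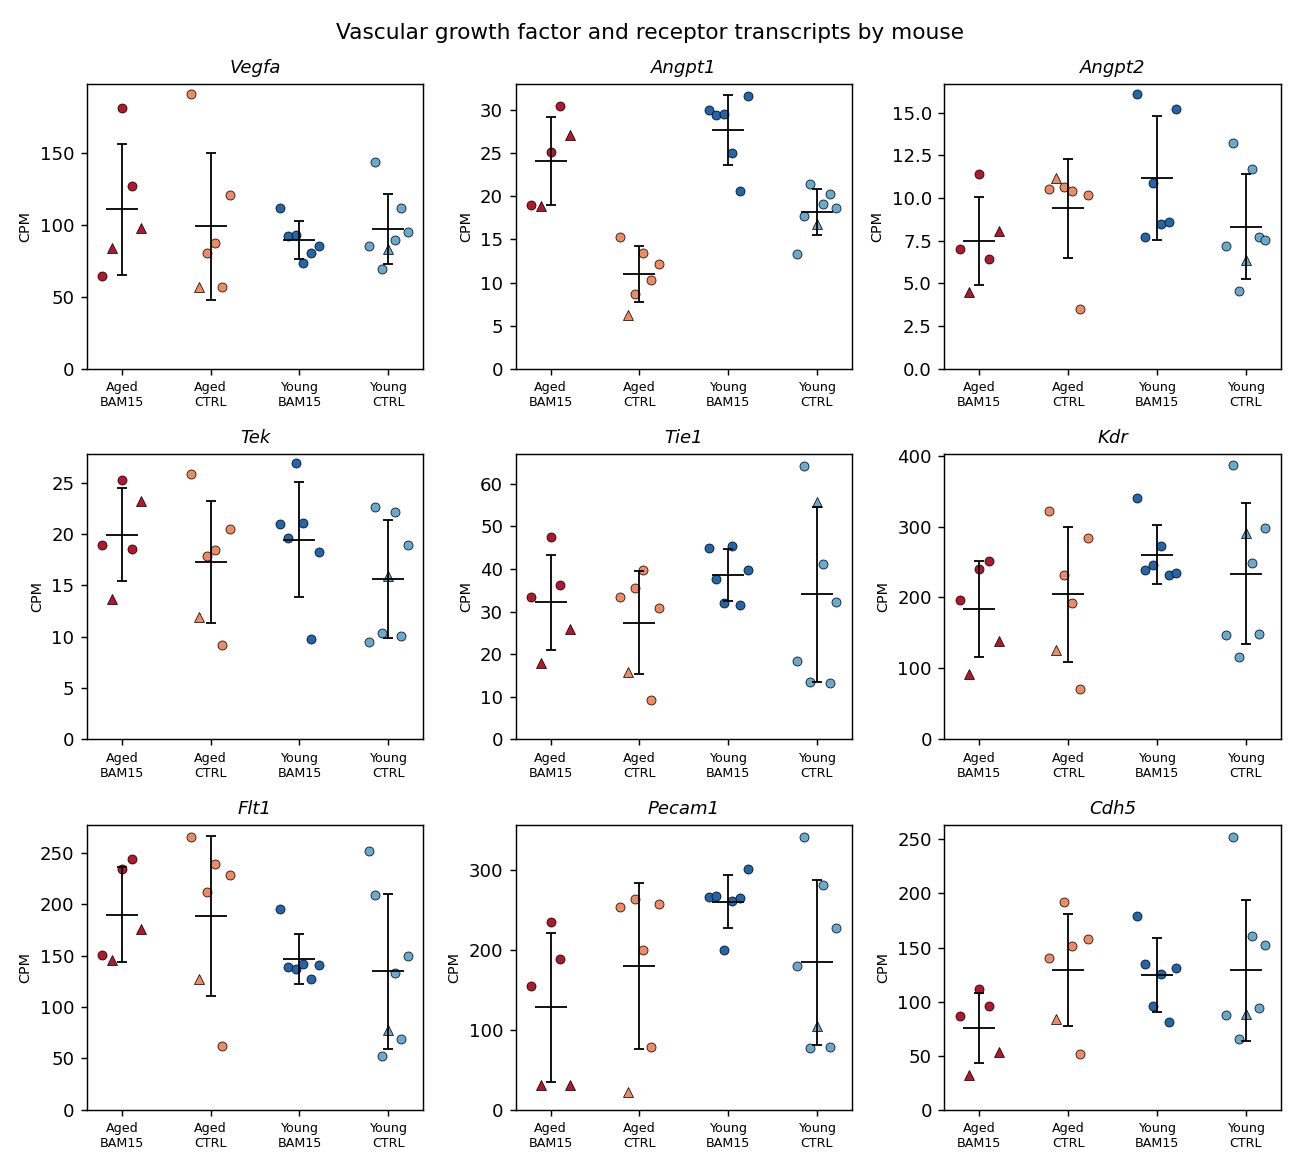
Each panel plots 1 gene in CPM (vertical axis, from 0) for every mouse of the 4 groups; horizontal bars and whiskers are the mean ± SD, and triangles are the 4 libraries with little mt-Rnr2. The Angpt1 panel has all 5 Aged BAM15 mice (18.9 to 30.5 CPM) above all 6 Aged CTRL mice (6.24 to 15.3 CPM), while the other panels overlap.

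The first comparison asked which of these genes differ with age in mice without BAM15. Of the 9 genes, 0 passed in Aged CTRL against Young CTRL by edgeR, where 0.207% of all genes tested passed (33 genes). At an unadjusted p under 0.05 there was 1 of 9, Angpt1, against 8.43% of all genes. DESeq2 called 1 of 9, the same gene, where it called 271 genes in all. By limma-voom 0 of 9 were called, where it called 145 genes in all. The log2 changes of the 9 had a median of 0.01, against -0.04 over all genes tested, and 5 of the 9 were positive.

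The second comparison asked which genes differ with BAM15 in aged mice. Of the 9 genes, 0 passed in Aged BAM15 against Aged CTRL by edgeR, and so did 0% of all genes tested. At an unadjusted p under 0.05 there were 2 of 9, Angpt1 and Cdh5, against 9.1% of all genes. DESeq2 and limma-voom each called 1 of 9, Angpt1, where they called 140 and 966 genes in all. The median log2 change was 0.01, against 0.02 over all genes. This comparison and the first share the Aged CTRL mice, so a high or low value there enters both with opposite sign.

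The third comparison asked the same in young mice. Of the 9 genes, 0 passed in Young BAM15 against Young CTRL by edgeR, and so did 0% of all genes tested. At an unadjusted p under 0.05 there was 1 of 9, Angpt1, against 13.1% of all genes. DESeq2 called 0 of 9, where it called 218 genes in all. By limma-voom 1 of 9 was called, Angpt1, where it called 631 genes in all. The median log2 change was 0.18, against 0.03 over all genes, and 7 of the 9 were positive. The age comparison and the young BAM15 comparison share the Young CTRL mice.

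The difference between the BAM15 effects in aged and young mice was tested as an interaction. By edgeR 0 of the 9 passed, as did 0% of all genes, and 0 of 9 had an unadjusted p under 0.05 (5.08% of all genes). DESeq2 and limma-voom called 0 of 9 each, where they called 38 and 0 genes in all. A last comparison set Aged BAM15 against Young CTRL, the series' reference. By edgeR 0 of 9 passed, where 1.29% of all genes did (205 genes), and 1 of 9, Cdh5, had an unadjusted p under 0.05 (16.8% of all genes). In this comparison DESeq2 and limma-voom called 0 of 9 each, where they called 826 and 1633 genes in all. It shares the Young CTRL mice with the age and the young BAM15 comparisons and the Aged BAM15 mice with the aged BAM15 comparison.

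**Figure D2:**
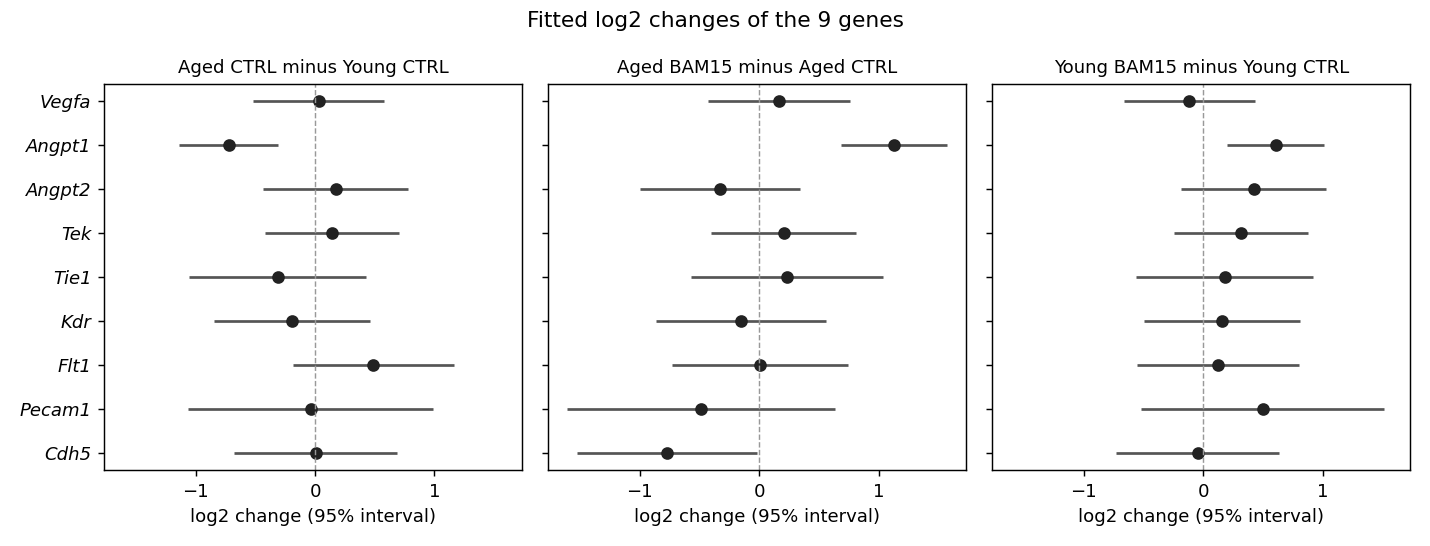
Fitted log2 changes (horizontal axis) with 95% intervals from edgeR for the 9 genes (rows) in the age comparison and in the BAM15 comparisons in aged and young mice. Angpt1 has an interval below 0 with age (-1.14 to -0.31) and above 0 with BAM15 in aged (0.69 to 1.58) and young mice (0.20 to 1.02); the Cdh5 interval in aged BAM15 mice ends at -0.02, and all other intervals include 0.

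Among the growth factors, Angpt1 (chr15:42424723-42676977, minus strand, GRCm38) had 18.9, 18.9, 25.2, 30.5 and 27.1 CPM in the 5 Aged BAM15 mice. The 6 Aged CTRL mice had 6.24 CPM at the lowest, a median of 11.2 and 15.3 at the highest. Every Aged BAM15 mouse was above every Aged CTRL mouse; of all genes tested, 0.42% were higher without overlap in this comparison. The log2 change was 1.13 ± 0.22 (SE), 2.19-fold, with an adjusted p of 0.105 by edgeR, and it ranked 3 of 15939 genes by p.

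In young mice Angpt1 had 20.6 CPM at the lowest, a median of 29.5 and 31.6 at the highest in Young BAM15. Young CTRL mice had 13.3, a median of 18.7 and 21.4 CPM. All 6 Young BAM15 mice were above the Young CTRL mean, but the lowest of them lay inside the Young CTRL range. The log2 change was 0.61 ± 0.20 (SE), with an adjusted p of 0.245 by edgeR. The BAM15 effect was 0.52 ± 0.29 log2 units larger in aged mice, with an interval from -0.08 to 1.13 and an adjusted p of 0.899.

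With age alone, the Angpt1 log2 change in Aged CTRL against Young CTRL was -0.72 ± 0.20 (SE), with an adjusted p of 0.160 by edgeR. All 6 Aged CTRL mice were below the Young CTRL mean, and the ranges overlapped between 13.3 and 15.3 CPM. Against Young CTRL, Aged BAM15 mice differed by 0.41 ± 0.21 log2 units (adjusted p = 0.321), and all 5 were above the Young CTRL mean. By mean level the order was Young BAM15, Aged BAM15, Young CTRL and Aged CTRL, and neighbours in that order overlapped.

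The sign of each Angpt1 difference was kept in every alternative analysis tried, but whether it passed the threshold depended on the method. In aged mice the adjusted p was 0.000403 by DESeq2 and 0.00197 by limma-voom with quality weights. By edgeR it was 0.0496 without Aged CTRL mouse 2 (log2 change 1.01), 0.0336 without Aged BAM15 mouse 1 (1.21), and 0.751 when the 2 groups were fitted alone; the age difference had an adjusted p of 0.0243 by DESeq2, and the young BAM15 difference 0.0279 by limma-voom. Without the 4 libraries with little mt-Rnr2 the log2 changes of Angpt1 were -0.62 with age, 1.06 with BAM15 in aged mice and 0.57 with BAM15 in young mice.

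Macrophage marker lists had median log2 changes of the opposite sign to Angpt1, and their part in the result was not tested. A list of 9 genes of lipid-associated macrophages (among them Trem2 and Gpnmb) averaged between 3.99 and 5.25 log2 CPM in Aged BAM15 mice, and between 5.49 and 6.93 in Aged CTRL mice. In Young BAM15 mice this average lay between 3.48 and 5.23, and in Young CTRL mice between 4.97 and 5.97. As summed CPM the list overlapped at both ages. A sum follows the most abundant genes of the list, while the average of log2 CPM weighs all 9 alike. It summed to 3029 to 13693 CPM in Aged BAM15 and 4350 to 16782 CPM in Aged CTRL mice. In young mice it summed to 4277 to 11350 CPM with BAM15 and 7689 to 26574 CPM without it. Its median log2 change was 1.17 with age (1 of 9 called by edgeR, Gpnmb), -1.90 with BAM15 in aged mice and -0.92 with BAM15 in young mice (0 of 9 called in each). The age call was lost without the 4 libraries with little mt-Rnr2, and also without the 3 with skin or muscle transcripts (0 of 9 each). For 11 general macrophage markers the summed level was 743 to 1688 CPM in Aged BAM15 mice and 1068 to 2281 CPM in Aged CTRL mice, 599 to 1521 CPM in Young BAM15 mice and 774 to 1822 CPM in Young CTRL mice, with median log2 changes of 0.65 with age, -0.60 with BAM15 in aged mice and -0.20 with BAM15 in young mice and 0 of 11 called in each. The value in young mice was -0.04 without the 4 low mt-Rnr2 libraries and -0.47 without the skin or muscle libraries. None of these markers was at 0 in all libraries of any group.

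Mesenchymal cells make angiopoietin-1, and their markers are given here as lists. A list of 14 pericyte and smooth muscle genes had median log2 changes of 0.17 with age, -0.07 with BAM15 in aged mice and 0.21 with BAM15 in young mice, and a list of 12 adipose progenitor genes had 0.03, 0.20 and -0.15; 0 genes of either list were called in these comparisons. Without the 4 low mt-Rnr2 libraries the progenitor medians were -0.07 with age (1 gene called higher), -0.01 with BAM15 in aged mice and -0.06 in young mice, and the pericyte medians were 0.27, -0.06 and 0.12. Without the skin or muscle libraries the progenitor medians were -0.18 with age and -0.51 with BAM15 in young mice, and the pericyte median with age was 0.45. B cell markers differed between libraries at both ages, with 0 of 11 called. These genes summed to 2.96 to 1585 CPM in Young BAM15 mice (median 523) and 2.70 to 442 CPM in Young CTRL mice (median 4.79). They summed to 1.84 to 393 CPM in Aged BAM15 mice (median 205) and 8.05 to 307 CPM in Aged CTRL mice (median 12.5). With that list as a covariate the Angpt1 log2 change in young mice was 0.70. In aged mice it was between 1.01 and 1.25 over 23 alternatives, that covariate among them.

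Angpt2 (chr8:18690263-18741562, minus strand) had 7.00, 4.48, 11.4, 6.41 and 8.07 CPM in the Aged BAM15 mice. Aged CTRL mice had 3.47 at the lowest, a median of 10.4 and 11.2 CPM at the highest, and 5 of the 6 lay between 10.2 and 11.2. Young BAM15 mice had 7.71, a median of 9.73 and 16.1 CPM, and Young CTRL mice had 4.55, a median of 7.52 and 13.2. All groups overlapped. The log2 changes were -0.33 ± 0.32 (SE) with BAM15 in aged mice, 0.42 ± 0.30 with BAM15 in young mice and 0.17 ± 0.30 with age, with adjusted p of 0.808, 0.560 and 0.956 by edgeR. Over 25 alternative analyses the change with BAM15 in young mice ran from 0.03 to 0.57. Angpt2 lies inside Mcph1, a DNA damage response gene on the opposite strand with a mean of 13.6 CPM, and whether the counting used strand is not given in the sources used here, so its low values are uncertain.

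Angpt1 and Angpt2 compete for Tie2, so their difference in log2 CPM was taken within each mouse. It was 1.42, 2.04, 1.13, 2.22 and 1.73 in the Aged BAM15 mice. In the Aged CTRL mice it had -0.83 at the lowest, a median of 0.31 and 1.52 at the highest. The highest Aged CTRL value came from mouse 5, whose Angpt2 was the lowest of all 24 mice, and the other 5 were at 0.54 or below, under every Aged BAM15 mouse. Young BAM15 mice lay between 0.89 and 1.91, and Young CTRL mice between 0.42 and 2.20. This is a description with no test, as Angpt1 alone carries most of it.

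Vegfa (chr17:46016993-46032369, minus strand), the main vessel growth factor, had 64.3, 83.9, 182, 127 and 98.2 CPM in the Aged BAM15 mice. The 6 Aged CTRL mice had 56.7 at the lowest, a median of 84.3 and 191 CPM at the highest. In the Young BAM15 mice it had 73.8, a median of 88.8 and 112 CPM, and Young CTRL mice had 69.2, a median of 89.8 and 144. The 4 groups overlapped across most of their ranges, and the aged groups had the larger SD (45.6 CPM in Aged BAM15 and 51.0 CPM in Aged CTRL, and 13.2 CPM in Young BAM15 and 24.4 CPM in Young CTRL). The log2 changes were 0.16 ± 0.29 (SE) with BAM15 in aged mice, -0.12 ± 0.27 with BAM15 in young mice and 0.03 ± 0.27 with age. Their 95% intervals, -0.43 to 0.76, -0.67 to 0.43 and -0.52 to 0.58, exclude a doubling of the level in each comparison.

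Kdr (chr5:75932827-75978458, minus strand), the gene for VEGFR2, had 196, 92.0, 240, 251 and 139 CPM in the Aged BAM15 mice. Aged CTRL mice had 70.7 at the lowest, a median of 212 and 321 CPM at the highest. The 6 Young BAM15 mice had 232, a median of 242 and 340 CPM, and Young CTRL mice had 116, a median of 248 and 386. The groups overlapped; the lowest Young BAM15 mouse was above 3 of the 5 Aged BAM15 mice and inside the range of both CTRL groups. The log2 changes were -0.15 ± 0.35 (SE) with BAM15 in aged mice, 0.16 ± 0.32 with BAM15 in young mice and -0.19 ± 0.32 with age, with adjusted p of 0.933, 0.881 and 0.956 by edgeR.

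Flt1 (chr5:147561604-147726011, minus strand), the gene for VEGFR1, had 150, 146, 234, 244 and 176 CPM in the Aged BAM15 mice. In the Aged CTRL mice it had 61.7 at the lowest, a median of 220 and 265 CPM at the highest. Young BAM15 mice had 127, a median of 140 and 195 CPM, and Young CTRL mice had 52.4, a median of 133 and 252. Aged groups had the higher means, with overlap. The log2 change with age was 0.49 ± 0.33 (SE), with an interval from -0.19 to 1.16 and an adjusted p of 0.792 by edgeR; it was 0.01 ± 0.36 with BAM15 in aged mice and 0.12 ± 0.33 with BAM15 in young mice, with adjusted p of 0.996 and 0.915.

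The balance of the VEGF receptors, taken as the difference between Kdr and Flt1 in log2 CPM within a mouse, separated most mice by age. It was 0.39, -0.66, 0.03, 0.04 and -0.34 in the Aged BAM15 mice, and between -0.32 and 0.32 with a median of 0.16 in the Aged CTRL mice. It was between 0.73 and 0.95 with a median of 0.82 in the Young BAM15 mice. In the Young CTRL mice the lowest was -0.78, the median 0.99 and the highest 1.89. All 11 aged mice were at 0.39 or below and 12 of the 13 young mice at 0.73 or above. The exception was Young CTRL mouse 1, the library with most skin keratin, which had the highest Flt1 of the young mice (252 CPM). The highest value, 1.89, came from Young CTRL mouse 4, a library with little mt-Rnr2. This difference was noticed after the values were seen and has no test; neither gene alone passed with age.

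**Figure D3:**
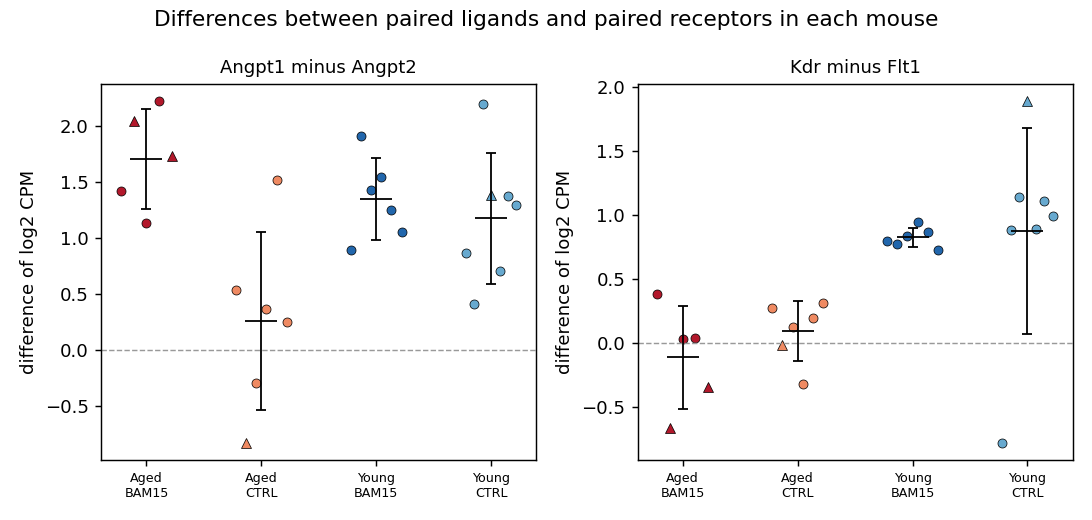
Differences of log2 CPM within each mouse (vertical axis) between Angpt1 and Angpt2 (left) and between Kdr and Flt1 (right) for the 4 groups; bars and whiskers are the mean ± SD, and triangles are the 4 libraries with little mt-Rnr2. On the right, the aged mice sit at 0.39 or below and the young mice at 0.73 or above except Young CTRL mouse 1 at -0.78; on the left, 5 of the 6 Aged CTRL mice are below all Aged BAM15 mice.

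The promoter letters of the receptor genes are shown because Kdr, Flt1 and Tek varied together among the mice while the balance of Kdr and Flt1 differed. The 250 bases before each start site were taken from RefSeq (GRCm38.p6), where Tek, Tie1, Kdr, Flt1 and Vegfa had entries. Capitals mark matches, on either strand, to a GC box (GGGCGG, found in 32.7% of 32851 promoter windows of that length), a hypoxia response core (ACGTG or GCGTG, 38.6%), a TATA box (TATAAA, 12.4%), a GATA site (AGATAA or TGATAA, 16.6%) or an ETS core (CCGGAAG or CAGGAAG, 17%). The regions are chr5:75978456-75978705 for Kdr and chr5:147726012-147726261 for Flt1, both read from the minus strand, and chr4:94739039-94739288 for Tek on the plus strand.
Kdr: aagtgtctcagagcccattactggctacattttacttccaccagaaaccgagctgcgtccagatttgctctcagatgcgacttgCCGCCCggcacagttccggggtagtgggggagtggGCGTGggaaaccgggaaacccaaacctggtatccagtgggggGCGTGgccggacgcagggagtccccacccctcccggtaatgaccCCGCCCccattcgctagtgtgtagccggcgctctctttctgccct
Flt1: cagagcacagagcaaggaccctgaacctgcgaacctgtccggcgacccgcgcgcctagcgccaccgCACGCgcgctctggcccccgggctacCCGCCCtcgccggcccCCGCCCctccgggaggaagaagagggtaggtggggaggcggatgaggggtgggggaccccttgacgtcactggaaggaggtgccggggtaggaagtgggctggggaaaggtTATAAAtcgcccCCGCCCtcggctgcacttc
Tek: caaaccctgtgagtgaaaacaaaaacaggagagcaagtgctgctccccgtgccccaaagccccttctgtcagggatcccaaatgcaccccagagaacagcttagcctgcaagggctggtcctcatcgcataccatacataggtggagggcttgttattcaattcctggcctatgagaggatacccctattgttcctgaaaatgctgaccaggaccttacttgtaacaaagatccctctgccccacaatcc
Kdr held GC boxes 166 and 45 bases before the start and the letters GCGTG 131 and 89 bases before it. Flt1 held GC boxes 158, 142 and 19 bases before the start, GCGTG on the other strand at 184, and TATAAA at 31. Tek held none of the searched words in this window, and no ETS or GATA word was found in any of the 3 windows. The Tie1 window held none of the searched words either. A match describes the letters and is not evidence of a bound site.

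Tek (chr4:94739289-94874976, plus strand), the Tie2 gene, had 18.9, 13.6, 25.3, 18.6 and 23.2 CPM in the Aged BAM15 mice. The 6 Aged CTRL mice had 9.20 at the lowest, a median of 18.2 and 25.9 CPM at the highest. In the Young BAM15 mice it had 9.77, a median of 20.3 and 26.9 CPM, and Young CTRL mice had 9.46, a median of 15.9 and 22.7. Mean levels were higher in each BAM15 group than in its CTRL group, with nearly complete overlap. The log2 changes were 0.20 ± 0.30 (SE) with BAM15 in aged mice, 0.31 ± 0.27 with BAM15 in young mice and 0.14 ± 0.27 with age, with adjusted p of 0.877, 0.653 and 0.966 by edgeR.

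Tie1 (chr4:118471191-118490061, minus strand) had 33.5, 17.8, 47.6, 36.3 and 25.9 CPM in the Aged BAM15 mice. Aged CTRL mice had 9.12 at the lowest, a median of 32.1 and 39.7 CPM at the highest. The 6 Young BAM15 mice had 31.5, a median of 38.8 and 45.4 CPM, and Young CTRL mice had 13.3, a median of 32.2 and 64.2. The Young BAM15 mice stood close together inside the wide Young CTRL range. The log2 changes were 0.23 ± 0.39 (SE) with BAM15 in aged mice, 0.18 ± 0.36 with BAM15 in young mice and -0.31 ± 0.36 with age, with adjusted p of 0.899, 0.882 and 0.927 by edgeR.

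Cdh5 (chr8:104101625-104144511, plus strand), the VE-cadherin gene, was the other gene with a raw p under 0.05. It had 86.5, 31.9, 111, 95.7 and 53.5 CPM in the Aged BAM15 mice. In the Aged CTRL mice it had 51.1 at the lowest, a median of 146 and 192 CPM at the highest. Young BAM15 mice had 81.2, a median of 129 and 179 CPM, and Young CTRL mice had 65.2, a median of 94.4 and 253. All 5 Aged BAM15 mice were below the Aged CTRL mean of 129 ± 52.0 CPM (SD, n = 6), and 4 of them lay inside the Aged CTRL range. The log2 change was -0.77 ± 0.37 (SE), with an interval from -1.53 to -0.02 and an adjusted p of 0.535 by edgeR. Without the 4 libraries with little mt-Rnr2, which include the 2 lowest Aged BAM15 mice, it was -0.50 with an adjusted p of 0.667.

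Against Young CTRL the Cdh5 difference in Aged BAM15 was -0.77 ± 0.36 (SE), with an adjusted p of 0.276. With the mean of 33 other endothelial genes as a covariate, it was -0.65 with an adjusted p of 0.0253, past the threshold; without the 4 libraries it was -0.46 with an adjusted p of 0.645. The log2 change was 0.01 ± 0.33 with age and -0.05 ± 0.33 with BAM15 in young mice. A predicted gene, Gm29682, overlaps Cdh5 on the other strand, and another, Gm17473, overlaps Angpt1; neither was analysed here.

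Pecam1 (chr11:106654217-106750628, minus strand) had 155, 30.9, 235, 189 and 31.2 CPM in the Aged BAM15 mice. The 6 Aged CTRL mice had 22.5 at the lowest, a median of 227 and 264 CPM at the highest. In the Young BAM15 mice it had 199, a median of 265 and 301 CPM, and Young CTRL mice had 77.4, a median of 180 and 341. The 3 lowest values of all 24 mice, 22.5, 30.9 and 31.2 CPM, came from Aged CTRL mouse 2 and Aged BAM15 mice 2 and 5, which are 3 of the 4 libraries with little mt-Rnr2. The fourth, Young CTRL mouse 4, had 105 CPM.

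The Pecam1 log2 change with BAM15 in aged mice was -0.49 ± 0.54 (SE), and -0.13 without the 4 libraries. It was 0.50 ± 0.50 with BAM15 in young mice, where all 6 Young BAM15 mice were above the Young CTRL mean, and -0.04 ± 0.50 with age; the 3 adjusted p were 0.837, 0.706 and 0.998 by edgeR. Its interaction was -0.98 ± 0.74, with an interval from -2.50 to 0.53 and an adjusted p of 0.899.

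In young mice the 6 receptor and junction genes had a smaller spread with BAM15 than without it. The coefficient of variation of Pecam1 was 12.7% in Young BAM15 and 56.3% in Young CTRL. For Tie1 it was 15.6% in Young BAM15 and 60.3% in Young CTRL, for Flt1 16.6% in Young BAM15 and 55.8% in Young CTRL, and for Kdr 16.0% in Young BAM15 and 42.7% in Young CTRL. The gap was narrower for Tek, at 28.7% in Young BAM15 and 36.8% in Young CTRL, and for Cdh5, at 27.4% in Young BAM15 and 50.5% in Young CTRL. Of the libraries that stood apart, Young BAM15 held mouse 3 and Young CTRL held mice 1, 4 and 7. Lymph node markers also differed. Glycam1 was at 14.8 CPM or more in Young BAM15 mice 2 to 6 and at 0.15 in mouse 1. In Young CTRL it was at 26.8 and 20.9 CPM in mice 1 and 5 and at 0.17 or below in the others. A list of lymph node vessel and stroma genes (4 tested) had a median log2 change of 2.31 with BAM15 in young mice, with 0 called by edgeR. The part of these libraries and markers in the spread was not tested. Young CTRL mouse 2 was the highest of its group for 7 of the 9 genes, and mouse 3 the lowest for 6. In the aged groups, Aged BAM15 mouse 2 was the lowest of its group for 8 of the 9 genes and Aged CTRL mouse 5 for 7. The spread was described and not tested.

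The endothelial genes varied together from mouse to mouse, and Angpt1 varied apart from them. After the group means were subtracted, Pearson's r over 24 mice was 0.90 between Kdr and Tie1, 0.87 between Kdr and Cdh5 and 0.82 between Tie1 and Cdh5. Over the 21 pairs among Angpt2, Tek, Tie1, Kdr, Flt1, Pecam1 and Cdh5, r lay between 0.42 and 0.90 with a median of 0.70. Angpt1 had r of 0.13 to 0.50 with these 7 genes and 0.60 with Vegfa. With the mean of the 33 other endothelial genes, r was 0.97 for Cdh5, 0.90 for Kdr, 0.84 for Tie1 and for Pecam1, 0.65 for Vegfa and 0.37 for Angpt1. Without the 4 libraries with little mt-Rnr2, Angpt1 had r of 0.16 with the 33 genes and Cdh5 0.97. All points share a library and its depth, so these are descriptions over 24 libraries.

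**Figure D4:**
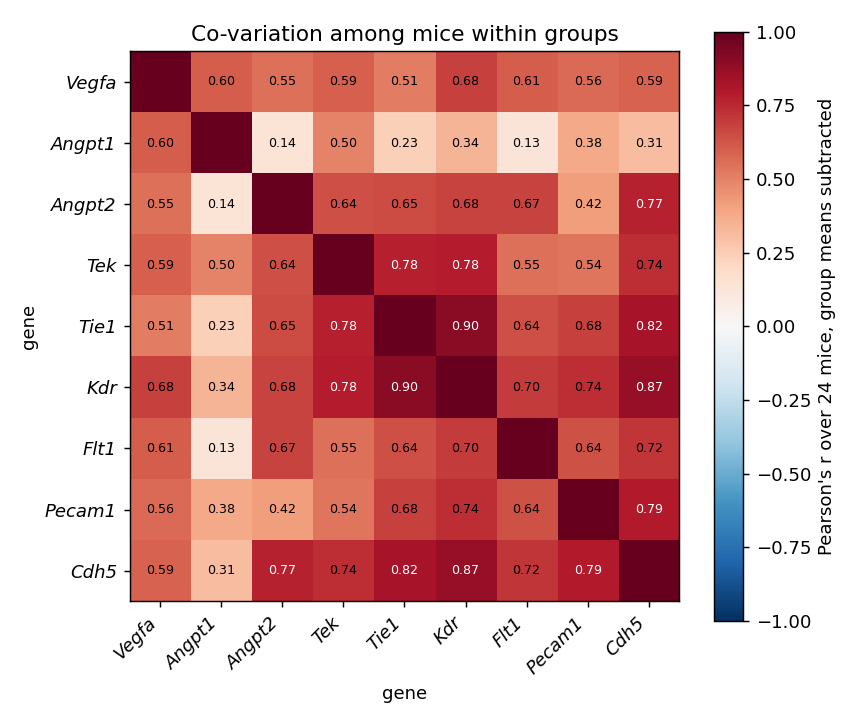
Pearson's r between each pair of the 9 genes over 24 mice, computed on log2 CPM with group means subtracted (rows and columns are genes, colour runs from -1 to 1). The block from Angpt2 to Cdh5 has r between 0.42 and 0.90, and the Angpt1 row holds the palest cells, down to 0.13 with Flt1.

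For each gene the 3 others with the highest r in the same 24 mice, among 10436 genes, were listed. They were Fgfr1, Cped1 and Mosmo for Angpt1 (r of 0.83, 0.80 and 0.80), Gata2, Tcf7l2 and Hexim1 for Vegfa (0.82, 0.82 and 0.80), and Mecom, Sema4c and Daam2 for Angpt2 (0.87, 0.79 and 0.79). For the receptors they were Aqp1, Dysf and Ltbp4 for Tek (0.85, 0.85 and 0.84), Ablim3, Tmem204 and Septin4 for Tie1 (0.93, 0.89 and 0.89), Dysf, Lrrc32 and Fgd5 for Kdr (0.92, 0.91 and 0.90), and Pcdh1, Nrarp and Sema7a for Flt1 (0.86, 0.85 and 0.85). Dysf stood near both Tek and Kdr. For the junction genes they were C1qtnf9, Mmrn2 and Ldb2 for Cdh5 (0.95, 0.94 and 0.93) and Sfswap, Spen and Fmnl3 for Pecam1 (0.96, 0.95 and 0.95). For Pecam1, r with Sfswap was 0.87 without the 4 libraries. For Angpt1, r without them was 0.74 with Fgfr1, 0.73 with Cped1 and 0.74 with Mosmo.

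Of the 33 other endothelial genes, 0 passed in the age comparison or in either BAM15 comparison. Their median log2 change was 0.32 with age (25 of 33 positive) and -0.28 with BAM15 in aged mice (10 of 33 positive). With BAM15 in young mice it was 0.15 (23 of 33 positive). Over all genes tested, 46.5% were positive with age, 51.7% with BAM15 in aged mice and 52.7% with BAM15 in young mice. Genes that vary together are not independent, so the counts of positive genes are a description with no test. Without the 4 low mt-Rnr2 libraries the median was 0.27 with age, -0.18 with BAM15 in aged mice and 0.15 in young mice. Against Young CTRL, Aged BAM15 mice had a median of -0.03, and of 0.15 without the 4 low mt-Rnr2 libraries. With age, Tal1, an endothelial and blood transcription factor gene, differed by 0.98 ± 0.40 log2 units (SE), Eng, a TGF-beta co-receptor gene, by 0.84 ± 0.34, and Nos3, the endothelial nitric oxide synthase gene, by -0.55 ± 0.24, with adjusted p of 0.432, 0.432 and 0.528.

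With BAM15 in aged mice, the tight junction gene Cldn5 had the smallest p of the 33 endothelial genes. It averaged 12.4 ± 2.80 CPM in Aged BAM15 and 32.2 ± 16.6 CPM in Aged CTRL (SD, n = 5 and 6), a log2 change of -1.37 ± 0.43 (SE) with an adjusted p of 0.334 by edgeR. Every Aged BAM15 mouse was below the Aged CTRL mean, with overlap. Cd93 and Ramp2 had log2 changes of -0.66 ± 0.33 and -0.48 ± 0.25, with adjusted p of 0.566 and 0.593. Against Young CTRL the Cldn5 difference was -1.53 ± 0.43 with an adjusted p of 0.0707, 0.00989 by DESeq2, and 0.0241 by edgeR without Young CTRL mouse 4. In young mice the endothelial genes with the smallest p were Gimap6 (1.13 ± 0.42), Plvap (0.66 ± 0.30) and Nos3 (-0.52 ± 0.24). Their adjusted p were 0.275, 0.358 and 0.365 by edgeR. Gimap6 is also a lymphocyte gene, and with the B cell list as a covariate its log2 change was 0.40. Over 25 alternative analyses Plvap ran from 0.35 to 0.84 and Nos3 from -0.71 to -0.20.

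Among 7 other VEGF family genes (the ligands Vegfb, Vegfc, Vegfd and Pgf, the lymphatic receptor Flt4 and the co-receptors Nrp1 and Nrp2), 0 passed in any comparison. With age 6 of 7 were positive with a median of 0.25, which was 0.026 without the 4 low mt-Rnr2 libraries, and the change of Vegfc, a lymphatic growth factor, was 0.87 ± 0.55 log2 units with an adjusted p of 0.753. With BAM15 in aged mice Pgf, which binds VEGFR1, averaged 1.87 ± 1.32 CPM in Aged BAM15 and 5.55 ± 3.47 CPM in Aged CTRL (SD, n = 5 and 6), a log2 change of -1.57 ± 0.52 (SE) with an adjusted p of 0.359. With BAM15 in young mice Vegfd differed by -0.80 ± 0.34 log2 units (adjusted p = 0.333), with all 6 Young BAM15 mice below the Young CTRL mean. The median of the 7 was 0.00 with BAM15 in aged mice and 0.05 in young mice; in young mice it was 0.13 without the 4 low mt-Rnr2 libraries and 0.17 without the skin or muscle libraries.

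Among 7 other genes of the angiopoietin and Tie system (Angpt4, Angptl1, Ptprb, Svep1, Dok2, Foxo1 and Klf2), 0 passed in any comparison. Svep1, which encodes an extracellular protein that binds Tie1, averaged 71.8 ± 24.8 CPM in Aged CTRL and 38.5 ± 8.85 CPM in Young CTRL (SD, n = 6 and 7). Its log2 change was 0.90 ± 0.24 (SE) with an adjusted p of 0.148 by edgeR; the adjusted p was 0.0239 by DESeq2, 0.00474 by limma-voom and 0.0319 by edgeR without the 4 libraries with little mt-Rnr2 (1.08 log2 units). Dok2, an adaptor of Tie2 signalling that blood cells also use, differed by -0.88 ± 0.27 log2 units with BAM15 in aged mice (adjusted p = 0.312). Klf2, a flow-responsive transcription factor gene, differed by 0.66 ± 0.37 with BAM15 in young mice (adjusted p = 0.451). Over 25 alternative analyses this Klf2 value ran from 0.11 to 0.76.

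Of 10 inhibitors of vessel growth, 2 rose in Aged CTRL against Young CTRL and 0 fell, where 0.207% of all genes tested passed, with a list median of 0.52 against -0.04 over all genes. The list was chosen with earlier results of these data known, so its count is not independent evidence of a direction. Without the 3 libraries with skin or muscle transcripts 1 of the 10 passed and the median was 0.36. Timp3, a matrix protease inhibitor that also blocks VEGF binding to VEGFR2, averaged 747 ± 205 CPM in Aged CTRL and 352 ± 79.5 CPM in Young CTRL (SD, n = 6 and 7), a log2 change of 1.09 ± 0.22 (SE) with an adjusted p of 0.0278 by edgeR. All 6 Aged CTRL mice were above the Young CTRL mean, with overlap, and its adjusted p was above 0.05 in 11 of 25 alternative analyses, with log2 changes from 0.96 to 1.24 over all 25. These include leaving out any of Aged CTRL mice 1, 3, 4 and 6 or Young CTRL mice 1, 3, 5 and 6 (adjusted p of 0.0583 to 0.0981). Thbs2, the anti-angiogenic matrix protein gene thrombospondin 2, averaged 114 ± 47.9 CPM in Aged CTRL and 22.2 ± 9.37 CPM in Young CTRL, without overlap. In this comparison 0.333% of all genes tested were higher without overlap. The Thbs2 log2 change was 2.36 ± 0.33 (adjusted p = 0.0012 by edgeR), and it passed in all 25 alternatives.

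With BAM15 in aged mice 0 of the 10 inhibitor genes passed. Thbs2 averaged 131 ± 83.9 CPM in Aged BAM15, against 114 ± 47.9 CPM in Aged CTRL, and Timp3 averaged 867 ± 261 CPM in Aged BAM15, against 747 ± 205 CPM in Aged CTRL. Against Young CTRL both rose in Aged BAM15, Thbs2 by 2.56 ± 0.35 log2 units (SE, adjusted p = 0.000677) and Timp3 by 1.30 ± 0.23 (adjusted p = 0.00531), where 1.29% of all genes passed. Timp3 had an adjusted p of 0.0595 with the replicate block and 0.0588 with these groups fitted alone. The list's smallest p with BAM15 in aged mice belonged to Serpinf1, the gene of pigment epithelium-derived factor, at -1.27 ± 0.35 (adjusted p = 0.257 by edgeR, 0.0387 by DESeq2 and 0.00476 by limma-voom). Sparc, a matrix protein gene, differed by -1.03 ± 0.36 (adjusted p = 0.395 by edgeR, and 0.00937 by limma-voom, with -1.43).

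Other vessel genes mostly did not pass. Of 16 further growth and guidance factors, 0 passed with age or with BAM15 at either age. Fgf2 averaged 37.4 ± 13.3 CPM in Aged BAM15 and 18.6 ± 4.97 CPM in Aged CTRL, without overlap, where 0.42% of all genes tested were higher without overlap. Its log2 change was 1.01 ± 0.31 (adjusted p = 0.317 by edgeR and 0.0472 by limma-voom). Hgf differed by -1.17 ± 0.46 with BAM15 in young mice (adjusted p = 0.296 by edgeR). Slit3, a guidance factor gene, rose by 1.07 ± 0.22 log2 units in Aged BAM15 against Young CTRL (adjusted p = 0.0176, and above 0.05 in 5 of 24 alternatives, with 0.0555 without Aged BAM15 mouse 3 and 0.0828 without mouse 5).

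Of 22 targets of the hypoxia response, 0 passed with age or with BAM15 at either age, with list medians of 0.06 with age, 0.02 with BAM15 in aged mice and -0.27 with BAM15 in young mice. Without the 4 low mt-Rnr2 libraries these were -0.14, -0.23 and -0.23, and without the skin or muscle libraries 0.12, 0.05 and -0.32. Ndrg1 of that list rose by 1.37 ± 0.34 log2 units in Aged BAM15 against Young CTRL (adjusted p = 0.0431). It passed in 12 of 24 alternatives, did not pass without any one of Aged BAM15 mice 2, 3 and 5 or Young CTRL mice 2, 3, 5, 6 and 7 (adjusted p of 0.0632 to 0.211), and had 0.78 without the 4 libraries with little mt-Rnr2. Of 13 genes of sprouting tip cells and Notch signalling and of 11 regulators of Vegfa around Ppargc1a, 0 passed in any of the 5 comparisons. Of 14 pericyte and smooth muscle genes 0 passed in any of the 5, and Kcnj8, a pericyte potassium channel gene, differed by 1.05 ± 0.29 with age (adjusted p = 0.156, and 0.0294 by DESeq2).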

How the data were processed

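The authors deposited raw counts per Ensembl gene for 24 libraries and, as signal values, those counts scaled by a size factor for each library; recomputing the counts left a largest deviation of 6.52e-09. Per the submitters' processing notes, R 3.4.3, DESeq2 1.18.1 and GRCm38 were used. Which aligner, counter and annotation made the counts is not given in the sources used here. Symbols came from the deposited table (14606) or GENCODE vM21 (2888), and 47 genes had none. No gene of the table had fewer than 72 counts in all, so genes below that were not analysed here.

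The counts were tested with edgeR 4.0.16 in R 4.3.3: TMM factors, filterByExpr, and a robust quasi-likelihood fit of 4 groups over all 24 libraries (20 residual degrees of freedom), with Benjamini-Hochberg adjustment over 15939 genes and a threshold of 0.05. The script was tested on simulated data with known changes in Aged BAM15 against Aged CTRL, and the other comparisons were not simulated. Log2 CPM used a prior count of 2. DESeq2 1.42.0, limma 3.58.1, other scalings and filters, covariates and left-out libraries were alternatives. Libraries of a group are taken as separate mice from their IDs; rearing and batch are not in the labels. No pair of libraries in a group was a copy (chi-square per gene of 19.8 or more in 61 pairs).

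The genes and lists were chosen with earlier results of these data known. Named genes are the 9, up to 3 per list with the smallest p, genes of the VEGF and angiopoietin lists, and the 3 most alike per gene among genes of at least 5 CPM.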

Additional observations from a re-analysis of the deposited data

Results flagged for a closer look

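Among 36 sets of values (9 genes in 4 groups), 2 had a mouse far from the rest of its group by Dixon's test, a rule that flags about 1 group in 20 by chance. Angpt2 in Aged CTRL mouse 5 was 3.47 CPM, where the other 5 mice had 10.2 to 11.2 CPM, and that gap took 0.866 of the group's range. That mouse was also the lowest of its group for 7 of the 9 genes. Flt1 in Young BAM15 mouse 1 was 195 CPM, where the next mouse had 142 CPM, and that gap took 0.786 of the range. Mouse 1 was the highest of its group for 5 of the 9 genes.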

How the results depend on the processing

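Of 1188 values of the 9 genes under other settings, 1102 kept their direction and their side of the threshold, 7 passed it where the reported value did not, and 79 changed sign. None of the 9 genes passed in any reported comparison, so these values cannot show how stable a passing difference would be. The count of the 9 genes that passed was 1 in place of 0 by DESeq2 with age and with BAM15 in aged mice, by limma-voom with BAM15 in aged and in young mice (Angpt1 each time), and with the endothelial covariate in Aged BAM15 against Young CTRL (Cdh5). It ran from 0 to 1 with 1 mouse left out with BAM15 in aged mice. The counts of all genes that passed moved from 33 to 271 (DESeq2) and 145 (limma-voom) with age, from 0 to 140 and 966 with BAM15 in aged mice, from 0 to 218 and 631 in young mice, and from 205 to 826 and 1633 in Aged BAM15 against Young CTRL, and DESeq2 called 38 for the interaction. The cause was not tested.

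With age, log2 changes that turned sign were those of Vegfa (-0.043 with the replicate block, -0.16 with the endothelial covariate, -0.0086 without the 3 skin or muscle libraries, -0.068 by limma-voom; -0.27 to 0.15 with 1 mouse left out), Tek (-0.00095 with the endothelial covariate; -0.0073 to 0.27), Pecam1 (0.10 without the 4 low mt-Rnr2 libraries, 0.024 without the skin or muscle libraries, 0.023 by limma-voom; -0.18 to 0.19) and Cdh5 (-0.037 with the block, -0.22 with the endothelial covariate, -0.032 without the skin or muscle libraries, -0.063 by limma-voom; -0.14 to 0.26). With BAM15 in aged mice they were Vegfa (-0.086 to 0.46 with 1 mouse left out), Kdr (0.21 with the endothelial covariate, 0.061 without the 4 libraries, 0.14 by limma-voom; -0.33 to 0.023) and Flt1 (-0.049 with the B cell covariate; -0.17 to 0.13). With BAM15 in young mice they were Vegfa (-0.23 to 0.0046), Tie1 (-0.028), Kdr (-0.058) and Flt1 (-0.066; -0.016 to 0.35), each single value with the endothelial covariate, and Cdh5 (0.052 with the B cell covariate; -0.21 to 0.21). In the interaction they were Tek (0.27 with the endothelial covariate, 0.059 without the skin or muscle libraries, 0.069 by limma-voom; -0.25 to 0.042), Tie1 (-0.00040 with the B cell covariate; -0.18 to 0.22), Kdr (0.27 with the endothelial covariate, 0.084 by limma-voom) and Flt1 (0.44 with the endothelial covariate, 0.047 without the 4 libraries, 0.024 by limma-voom; -0.34 to 0.025). In Aged BAM15 against Young CTRL they were Vegfa (-0.056 to 0.34), Tie1 (0.046 with the endothelial covariate, 0.37 without the 4 libraries, 0.26 by limma-voom; -0.26 to 0.15) and Kdr (0.039 without the 4 libraries).

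The replicate numbers did not pair the mice: same-numbered mice had a median r of -0.04 in their deviations over 33 pairs, against 0.00 over 182 other pairs, and 3 of 24 matched best to their own number. With the replicate block 0 of the 9 genes passed in each comparison, and the counts of all genes went from 33 to 5 with age and from 205 to 17 in Aged BAM15 against Young CTRL. Angpt1 then had an adjusted p of 0.399 with BAM15 in aged mice. With 5 to 7 mice a group the intervals are wide: that of Pecam1 with BAM15 in aged mice ran from -1.61 to 0.64 log2 units.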
